A study of Mus musculus with 74 samples.

Results

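The binding sites of Gm14419, a mouse KRAB zinc finger protein (KRAB-ZFP), were described from a chromatin immunoprecipitation sequencing (ChIP-seq) sample of embryonic stem (ES) cells. All rows of the deposited peak table that carry the name Gm14419 were taken, which gave 3906 of the 53011 peaks of the 67 KRAB-ZFPs whose name in the table matches a sample label. The 8 other KRAB-ZFPs assayed in the same kind of cells, Gm14295, Gm14399, Gm14401, Gm14420, Gm14443, Gm4631, Gm8898 and Zfp931, had 5216 peaks together and served for comparison. In all 9 samples the cells were ES cells labelled B6 that overexpressed 1 of these proteins with a C-terminal 3XHA tag, and the tag was precipitated with the HA antibody clone 16B12 after crosslinking with formaldehyde. By the study's methods, the Gm14419 reading frame was codon-optimized and stably expressed from the vector pTRE-puromycin, and puromycin-resistant clones were pooled. The values are therefore those of a tagged protein made from a vector, not of the protein at its native level. Peaks of Gm14419, Gm14399, Gm14401, Gm14420, Gm4631 and Gm8898 were called by the authors against the input TI_399_Input, and those of Gm14295, Gm14443 and Zfp931 against TI_443_Input. The labels describe an input titled TI_339_Input, and whether it is the library cited as TI_399_Input is not known. Each protein was assayed in 1 sample, so no difference between proteins has a replicate check and no test between them was made. Intervals given below are 95% Wilson intervals for shares and exact Poisson intervals for counts, and both cover counting error only. The limit given for a count of 0 is the share that 3 counts of the total would make.

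KRAB-ZFPs contact DNA through an array of C2H2 zinc fingers, in which each finger reads a few neighbouring bases, so that a long array can recognise a long sequence. Through the KRAB domain they bring in KAP1 (Trim28) and with it the histone methyltransferase Setdb1 and heterochromatin, and many of them bind retrotransposons. A retrotransposon of the LTR class has a long terminal repeat (LTR) at either end, and the stretch just inside the upstream LTR holds the primer binding site and the leader before the coding region. Copies of such elements are scattered over the genome and differ by the mutations they gathered since insertion.

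Most Gm14419 peaks lay on copies of 1 LTR element, just inside its upstream LTR. The copy around the most central peak of that family, taken as the reference element, lay on chromosome 10 from 30533800 to 30540889 (mm9, the build of all coordinates given here). It was 7090 bp long with LTRs of 338 bp that were 99.7% identical to each other, and its longest open reading frames held 1085 and 557 codons on the sense strand and 133 on the antisense strand. Its 150 bases around the bound site are shown because the site sits in the same place in most peaks of the family. Capitals mark the 24 bases that match the Gm14419 motif described below, which reads on the opposite strand. The site began 75 bases past the end of the LTR, at base 414 of the element.
Reference element, chr10:30534123-30534272, plus strand: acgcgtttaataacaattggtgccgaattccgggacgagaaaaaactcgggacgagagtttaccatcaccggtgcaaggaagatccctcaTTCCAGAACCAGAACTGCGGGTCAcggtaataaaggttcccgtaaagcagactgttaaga

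The motif was derived from peaks in sequence whose exact 24-base words mostly occur once in the genome (single-copy peaks, defined below), on odd-numbered chromosomes alone. It is printed with capitals at the bases that had a share of at least 70% at their position in the weight matrix and lower case for the most frequent base elsewhere.
Gm14419 motif: tcacCcaCAGTcttGgTcccggac
The core read CAGT at positions 8 to 11, counted from 1 at the 5′ end of the motif, with shares of 90.1%, 81.0%, 93.3% and 95.3% in that order. It was followed by G at position 15 with 87.7% and T at position 17 with 89.6%, and preceded by C at position 5 with 76.3%. Position 12 was split between C with 50.1% and T with 49.4%.

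Sites at single-copy peaks are shown for 5 genes to let the same pattern be seen away from sequence with many identical copies. Diverged repeats can count as single-copy, and whether these sites lie in repeats was not tested. The sites of Vegfa and Mtmr10 lie on odd-numbered chromosomes, and their peaks were among those used to derive the motif. Capitals mark the bases equal to the most frequent base of the motif, each site is written on the strand that matches, and the peaks are described further below.
Vegfa, chr17:46006495-46006518, plus strand: cCtCCCACAGTCTTGGTtCCttAa
Cdc42bpb, chr12:112616021-112616044, minus strand: cCACCCgCAaTCTcGGTttCGcAC
Mtmr10, chr7:71432058-71432081, minus strand: gaACCCcCAGTtTaGtTttCtGAt
Pax5, chr4:44559546-44559569, minus strand: cCACCCtCcGTCTcGGTttttctC
Dgkg, chr16:22553276-22553299, plus strand: ctgCCCtCtGTCagGGTtgCGGAC
Their motif scores, in bits, were 21.6 for Vegfa, 18.1 for Cdc42bpb, 17.4 for Mtmr10, 15.8 for Pax5 and 14.0 for Dgkg.

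The copies of the LTR element carried a few versions of the site, which are printed because the share of copies with a peak differed between them. Lower case gives the base that was most frequent over all copies at that position, and capitals mark the bases that differ from it. In names such as T1C the first letter is that most frequent base, the number is the position counted from 1 at the 5′ end of the motif strand, and the last letter is the base of the version.
No differences: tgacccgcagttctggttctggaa
T1C: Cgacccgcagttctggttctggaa
T20C: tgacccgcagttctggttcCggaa
C4T+T20C: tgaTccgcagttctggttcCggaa
C4T+G22A: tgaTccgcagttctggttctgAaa
C4T+C5T: tgaTTcgcagttctggttctggaa
The base at position 5, which the motif gave as C in 76.3% and T in 8.40%, is T in 1 of these 6 versions.

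The Gm14419 sample had the most peaks and the highest median enrichment among the ES cell samples. It had 3906 peaks (exact Poisson interval 3784 to 4030), while the next were Gm14401 with 1541 and Gm8898 with 1517, and the other 6 had 256 to 480. The median fold enrichment over local background, the ratio that the authors' peak caller gave, was 24.4 for Gm14419 with quartiles of 12.2 and 37.4, and the medians of the 8 others lay between 9.63 and 12. The median number of tags, that is, reads counted in a called peak, was 46.0 against 10.0 to 22.0 in the others. The median peak score, the negative log10 of the p-value multiplied by 10, was 260 against 54.8 to 87.5. The false discovery rate estimated by the peak caller was at most 5% for 3896 of the 3906 peaks (99.7%), for 1345 of 1517 Gm8898 peaks and 193 of 480 Gm14443 peaks, and for 0 or 1 peak of each of the other 6 proteins. The Gm14419 peaks above 5% included strong ones. The peak in an intron of D17Wsu92e, with a score of 1026, had 7.69%, and that near the start of Mtmr10, with a score of 788, had 5.17%. The peak in an intron of Pax5, with a score of 1416, had 0. At a p-value under 1e-10 and a fold over 20, 2264 Gm14419 peaks were left and 1 to 117 in each of the others. The library depth was not known, and a deeper or better enriched sample gives more peaks, so the part of depth in these differences was not tested.

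**Figure D1:**
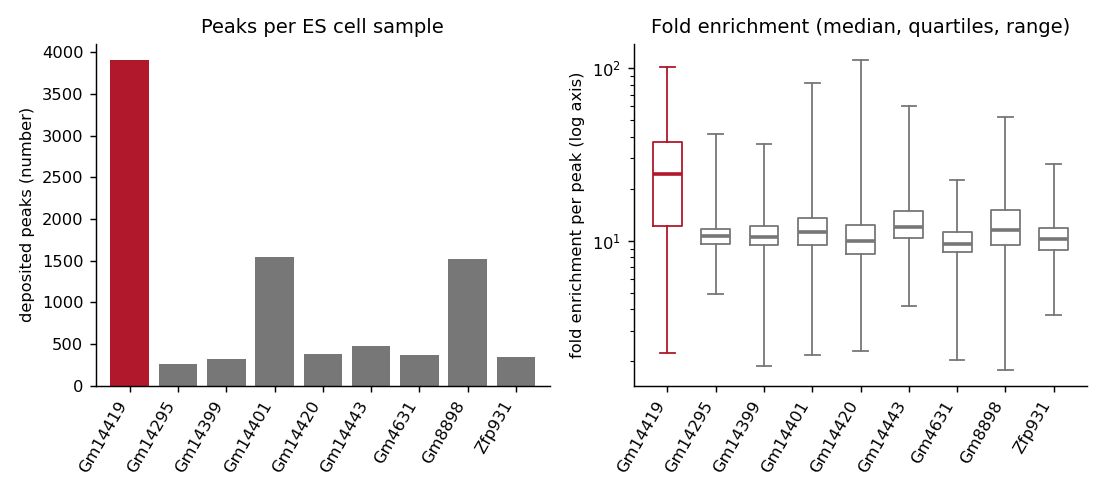
The left panel gives the number of deposited peaks for each of the 9 ES cell samples, and the right panel gives the fold enrichment of those peaks on a log axis, with boxes from the lower to the upper quartile, a line at the median and whiskers over the full range. Gm14419, in red, had 3906 peaks and a median fold of 24.4, and the highest median of the others, in grey, was 12.

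The peak with the highest fold lay on chromosome 17 at 30541168 in an intron of Btbd9, with a fold of 102 and a score of 2023. The peak with the most tags lay on chromosome 2 at 98502721, with 1152 tags, a fold of 2.24, which was the lowest of all, and no motif. At the same place Gm14399, Gm14401 and Gm4631, which were called against the same input, had peaks of 1176, 1171 and 1201 tags at folds of 1.89, 2.19 and 2.05.

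Copied sequence made up most of the Gm14419 peaks. The copy number of a peak was the median, over the 24-base words of its 200 bp window, of how often each word occurs in the genome. Of the 3906 peaks, 2941 (75.3%, interval 73.9% to 76.6%) had a copy number of at least 2, 2503 (64.1%) of at least 100 and 1061 (27.2%) of at least 1000. Only Gm8898 among the other ES samples had a larger multi-copy share, with 90.5%, and the smallest was 38.9%. Over all 67 KRAB-ZFPs, 8 had a larger share than Gm14419 and the median was 19.1%. Those outside the ES samples were assayed in F9 embryonal carcinoma (EC) cells with other antibodies and controls. Their peaks were called with an enrichment threshold of 10 or 20, which the ES samples lacked, so this ranking sets unlike thresholds side by side. Reads from identical copies were placed by the aligner at 1 of their equally good positions, so tags of a copy are partly those of its near-identical relatives.

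Grouping the 200 bp windows by alignment to each other, at 80% identity over 100 bases, gave 1 dominant family. The LTR family held 2636 peaks (67.5%, interval 66.0% to 68.9%), with a median of 59.0 tags and a median fold of 31.6. A second family of 221 peaks (5.66%) lay in tandemly repeated sequence, since 190 of the 221 surrounding windows matched themselves at a shift with a median of 212 bp. Its median fold was 8.53 and its median number of tags 18, and 2 of its peaks passed a p-value under 1e-10 and a fold over 20. A further 78 peaks fell into 21 smaller families, 63 multi-copy peaks into none, and 908 (23.2%) were ungrouped and single-copy with a median fold of 11.8. Together with the single-copy members of families, 965 peaks were single-copy, that is, had a copy number under 2.

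Summits on the LTR element stood in 1 narrow place. Of all Gm14419 peaks, 2573 (65.9%) could be aligned to the reference element, and 2491 of these (96.8%) lay within 150 bp of the modal position, at base 425. The quartiles were base 413 and base 445. Over the 1987 copies of the site region that had an LTR ending within 300 bases upstream, the centre of the motif lay a median of 86 bp from the LTR, and over the 1835 of them with a peak the summit lay at 92.0 bp. Among the other ES samples, Gm14399 and Gm4631 had their mode next to it, at base 475, with 109 and 181 summits on the element. Gm14443 had 199 summits with a mode at base 1725, Gm8898 had 1311 with a mode at base 1925 and Gm14401 had 474 with a mode at base 5825. Gm14295, Gm14420 and Zfp931 had 8 to 12 summits on the element.

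**Figure D2:**
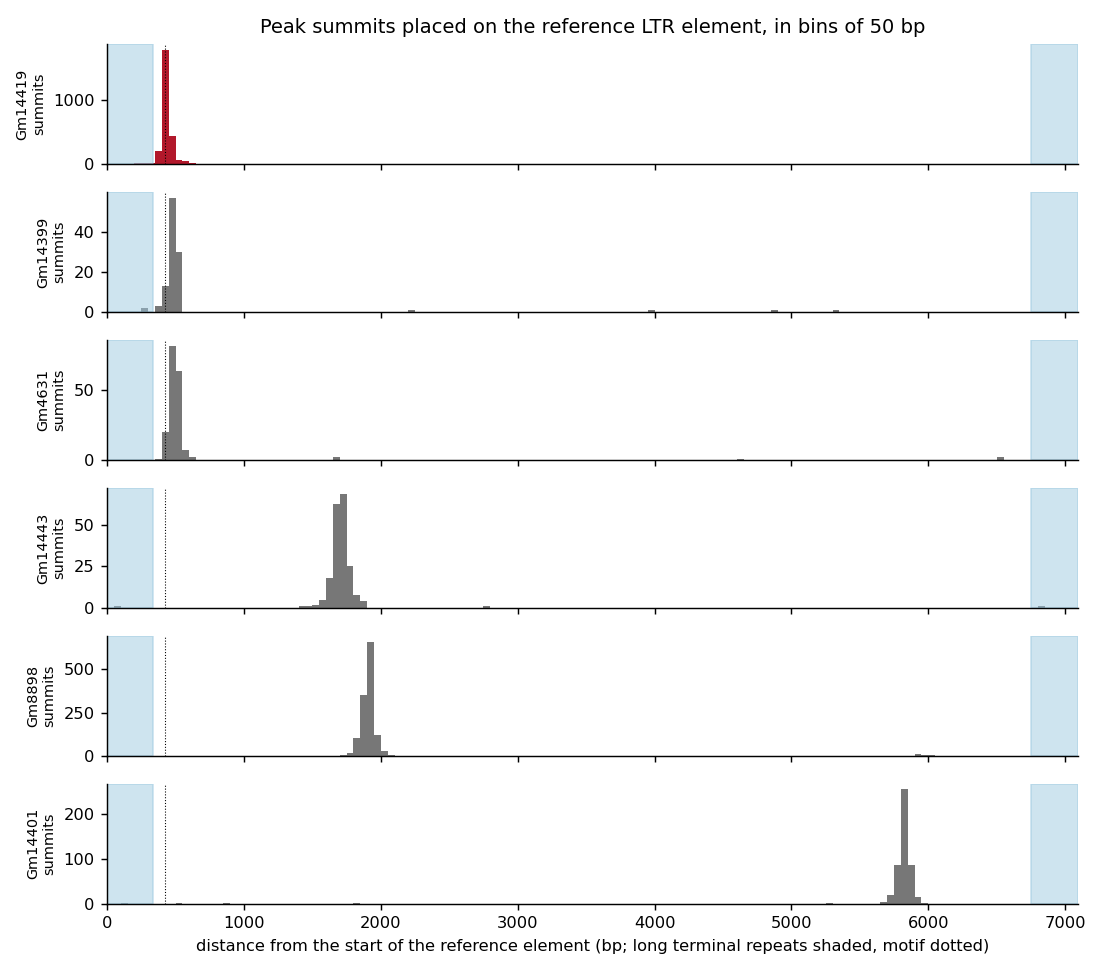
Each panel counts the peak summits of 1 protein along the reference element in bins of 50 bp, with the LTRs shaded and the motif site as a dotted line. Gm14419 summits peaked in the bin centred on base 425, next to the upstream LTR, Gm14399 and Gm4631 at base 475, and Gm14443, Gm8898 and Gm14401 further inside at bases 1725, 1925 and 5825.

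LTR copies away from the site region seldom carried a peak. Of 4164 LTR copies with no copy of the site region within 300 bases, 100 (2.40%, interval 1.98% to 2.91%) had a Gm14419 summit within 150 bp, while of 1987 next to a copy of the site region 1472 (74.1%) had one. The 4164 can include downstream LTRs of whole elements as well as LTRs that stand alone. For the 1987, the 150 bp window reaches into the site region, so the 74.1% counts peaks of the site and does not describe the LTR. The site region, in turn, had a peak in 1835 of 1987 copies (92.4%) with an LTR upstream and in 564 of 607 copies (92.9%) without one in that distance. Of the 2636 LTR family peaks, 2399 lay at a copy of the site region and 237 elsewhere, the latter with a median of 27 tags against 61.0. Of these 237, 189 held the motif described below and 35 aligned within the LTR of the reference element. The copies of the site region found by alignment therefore need not include every site of the family.

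The motif was present in most peaks that were not used to derive it. It is a weight matrix of 24 positions from 536 single-copy peaks on odd-numbered chromosomes. It was scored in bits against the base composition of the windows 1 kb to either side of those peaks. A window was said to hold the motif at a score of at least 12.6, which about 1% of these flanking windows reached. Of 429 single-copy peaks on the even-numbered chromosomes and X, 317 (73.9%, interval 69.5% to 77.8%) held the motif, and of the 858 windows 1 kb to either side of them 4 (0.466%) did. Of all 200 bp tiles of the genome 0.767% held it. In single-copy peaks of the other ES samples the share ranged from 0.427% for Gm14420 to 3.29% for Gm14295. The LTR family, of which only 23 peaks were single-copy, held the motif in 2555 of 2636 peaks (96.9%, interval 96.2% to 97.5%). The tandem family held it in 5 of 221 (2.26%, interval 0.970% to 5.19%). With the motif derived again without any LTR family peak, an alternative chosen after seeing the data, the share was 72.5% of 415 held-out peaks and again 96.9% of LTR family peaks.

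**Figure D3:**
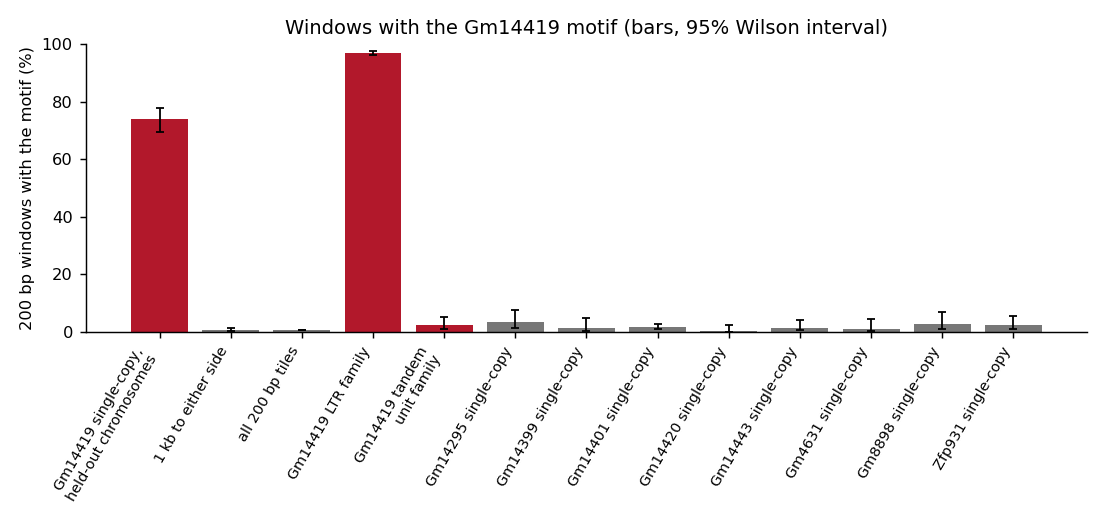
Bars give the share of 200 bp windows that hold the motif, in percent, with 95% Wilson intervals as error bars. In red are Gm14419 peaks, with 73.9% of held-out single-copy peaks, 96.9% of LTR family peaks and 2.26% of tandem unit family peaks, and in grey are the flanking windows, all tiles of the genome and the single-copy peaks of the 8 other ES samples, none of them above 3.29%.

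Motif, strength and position went together in the held-out peaks. The share with the motif was 53.2% in the lowest quartile by fold (3.84 to 9.26), then 71.7%, 83.3% and 87.7% in the highest (19.3 to 76.5). The motif centre lay within 25 bp of the summit in 223 of the 317 peaks with it (70.3%), with a median distance of 16.0 bp. Over those 317 peaks the motif score and the number of tags had a Spearman correlation of 0.23, and over the 2555 LTR family peaks with the motif 0.12. These are descriptions across sites of the same library, and many of the LTR family sites share their sequence and their reads. Among all ungrouped single-copy peaks, the median fold was 13.1 in the 645 with the motif and 9.79 in the 263 without it. In the LTR family the medians were 32.2 in 2555 peaks and 10.8 in 81. The held-out windows had a median GC content of 48.0% and a mean of 4.72 CpG dinucleotides, and their flanks 45.0% and 2.68.

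Most matches of the motif in the genome had no peak. At the threshold of 12.6 bits the genome held 111637 matches, and 3343 of them (2.99%, interval 2.90% to 3.10%) lay in the 200 bp window of a Gm14419 peak. Among single-copy matches on the held-out chromosomes the share rose with the score. It was 0.231% of 36290 matches under 15 bits, 0.906% from 15 to 17 bits, 4.09% from 17 to 19, 15.5% of 394 from 19 to 21, 46.7% of 60 from 21 to 23 and 11 of 12 (91.7%, interval 64.6% to 98.5%) at 23 bits or more. Multi-copy matches from 19 to 21 bits lay in a peak in 1565 of 1656 cases (94.5%), against 16.5% of 789 single-copy matches of the same scores on all chromosomes. In this range of scores stood 1534 copies of the LTR family, which was found through its peaks, and the part of the copy number in this difference was not tested.

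**Figure D4:**
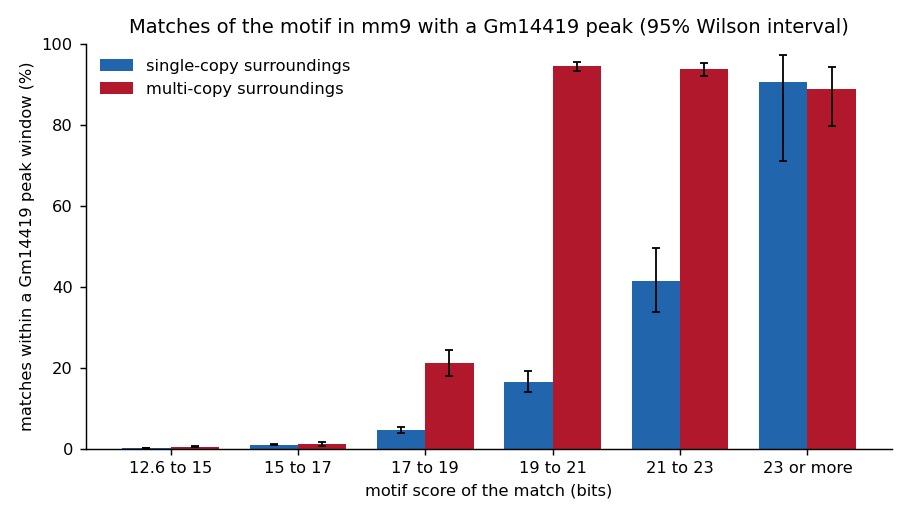
Bars give the share of motif matches in the genome that lie in a Gm14419 peak window, in percent, by motif score in bits, with 95% Wilson intervals as error bars. Matches in single-copy surroundings are in blue and those in multi-copy surroundings in red, over all chromosomes, those used to derive the motif included. From 19 to 21 bits the shares were 16.5% and 94.5%.

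Within the LTR family the share of copies with a peak differed by version of the site. Alignment to the reference element found 2594 copies of the 200 bases around the site in the genome, whether or not they had a peak. Of these, 2399 (92.5%, interval 91.4% to 93.4%) had a Gm14419 summit within 150 bp of the site. Family peaks with the motif also lay outside these copies, so the copies need not include every site. The commonest version, T1C, had a peak in 1178 of 1183 copies (99.6%) with a median of 68.0 tags, and T20C in 651 of 663 (98.2%) with 56.0 tags. The version without differences had one in 107 of 114 copies (93.9%), C4T+T20C in 146 of 148 (98.6%) with a median of 29 tags, and C4T+G22A in 84 of 95 (88.4%) with 26.0 tags. In contrast, C4T+C5T had one in 19 of 123 copies (15.4%, interval 10.1% to 22.9%), with a median of 16.0 tags. The interval of this version did not reach those of the other 5. These intervals treat copies as independent, but reads from identical copies were placed at 1 of their equally good positions. Of the 1183 T1C copies, 1131 lay in sequence with 1000 or more identical copies, and 1130 of these had a peak. A peak at such a copy can therefore rest on reads from its identical relatives.

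Over all versions, 26 of 143 copies with C5T (18.2%, interval 12.7% to 25.3%) had a peak and 2373 of 2451 without it (96.8%, interval 96.0% to 97.4%). The 16 copies of C4T+C5T+T20C, which differ from C4T+T20C by position 5 alone, had a peak in 6 (37.5%, interval 18.5% to 61.4%). In the motif from single-copy peaks, whose derivation used 9 peaks of the family, T stood at position 5 in 8.40% of sites. Position 5 was singled out after the values were seen. The median identity to the reference element was 82.1% for C4T+C5T, 82.7% for C4T+T20C, 80.9% for C4T+G22A and 89.5% for T1C, and the part of divergence in the difference was not tested. By copy number, 142 of the 143 C5T copies lay in sequence with at least 100 and fewer than 1000 identical copies, where 26 (18.3%) had a peak, and in that same range 960 of 998 copies without C5T (96.2%) did. Under a p-value below 1e-10 and a fold over 20, 0 of 143 C5T copies had a peak, which allows a share of up to 2.10%, and 75.6% of all copies did. This cut also lies above the median fold of the peaks at C4T+T20C (15.5) and C4T+G22A (14.5), which lack C5T. The median folds of the commonest versions, T1C and T20C, were 38.6 and 29.6. The share of each version under this cut was not counted, so whether the 0 is particular to C5T is not known.

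**Figure D5:**
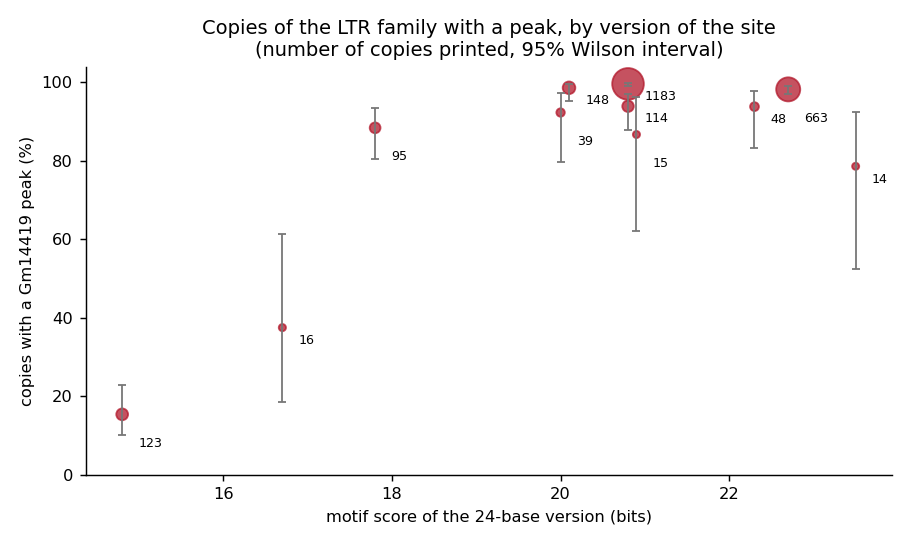
Each point is a version of the site present in at least 10 copies of the LTR family, with its motif score in bits on the horizontal axis and the share of its copies that have a Gm14419 peak, in percent, on the vertical axis. Point size and the printed number give the number of copies and error bars the 95% Wilson interval. C4T+C5T, at 14.8 bits, stands at 15.4% of 123 copies and C4T+C5T+T20C, at 16.7 bits, at 37.5% of 16, while the other 9 versions stand between 78.6% and 99.6%.

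Gm8898, Gm14401 and Gm14443, which peak elsewhere in the element, were counted on the same copies. Of the C5T copies, 21 also had the region where Gm8898 peaks lie, and 14 of these (66.7%, interval 45.4% to 82.8%) had a Gm8898 peak, against 1043 of 1245 copies without C5T (83.8%, interval 81.6% to 85.7%). Of the 21 C5T copies with its region, Gm14401 had a peak on 6 (28.6%, interval 13.8% to 50%) against 21.6% of 830 without C5T, and Gm14443 on 1 (4.76%, interval 0.846% to 22.7%) against 12.4% of 1550. For all 3 proteins the intervals with and without C5T overlapped.

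Copies with a peak of another protein mostly had a Gm14419 peak too, but so did 2399 of all 2594 copies (92.5%). All 96 copies with a Gm14399 peak at the neighbouring place and all 158 with a Gm4631 peak had a Gm14419 peak, as did 1128 of 1158 with Gm8898 (97.4%), 192 of 194 with Gm14443 (99%) and 180 of 185 with Gm14401 (97.3%). For the proteins that peak further inside, the copies that hold their own region were compared. Gm8898 had a peak on 1033 of 1233 such copies with Gm14419 (83.8%, interval 81.6% to 85.7%) and on 24 of 33 without it (72.7%, interval 55.8% to 84.9%). Gm14401 had one on 22.0% of 818 with Gm14419 (interval 19.3% to 25%) and 15.2% of 33 without it (interval 6.65% to 30.9%), and Gm14443 on 12.6% of 1515 (interval 11% to 14.4%) and 3.57% of 56 (interval 0.985% to 12.1%). The intervals overlapped for all 3. Of the 2399 copies with Gm14419, 1042 had none of these 5 proteins, 989 had 1, 339 had 2 and 29 had 3. Versions of the site differed in these partners. On T1C copies, Gm14419 had 1178 peaks and Gm14399 and Gm4631 had 0, which allows a share of up to 0.254% of 1183 copies. In all 1183 the alignment to the reference element covered the place where Gm14399 and Gm4631 peaks lie. Whether the bases at that place were the same in T1C and T20C copies was not tested. On the 663 T20C copies Gm14399 had 65 peaks and Gm4631 113, and the alignment to the reference element covered that place in 197 of these copies. Gm8898 had 774 peaks on T1C copies and 162 on T20C copies, where 949 and 93 copies held its own region by that alignment, so the alignment missed part of the diverged T20C copies.

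Loci shared between samples, counted where 200 bp windows overlapped by at least 25%, showed the same neighbours. Of the 3906 Gm14419 peaks, 307 (7.86%, interval 7.06% to 8.75%) overlapped a peak of any of the 66 other KRAB-ZFPs and 197 (5.04%) one of another ES sample. Gm4631 shared 105 loci, which were 28.3% of its peaks and 2.69% of those of Gm14419, and Gm14399 shared 98, or 30.4% and 2.51%. Of these, 103 and 96 belonged to the LTR family. At the shared loci the summits of Gm14399 lay a median of 53.5 bp (quartiles 23.8 and 85.8) and those of Gm4631 a median of 96.0 bp (54.0 and 119) further inside the element than those of Gm14419. Gm14410, which was assayed in F9 EC cells, an embryonal carcinoma line, with another control, shared 64 loci, 45.1% of its 142 peaks, and all 64 belonged to the LTR family. Gm14412, also from F9 EC cells, shared 24 of its 2787 peaks (0.861%), none of them in the LTR family. None of the 965 single-copy Gm14419 peaks was shared with Gm4631 or Gm14399, which allows a share of up to 0.311%, and 33 (3.42%) were shared with any other sample, 14 of them with Gm13152. With summits counted as shared within 1 kb, the 7.86% became 35.7%.

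A smaller family of 7 peaks lay within a single stretch of chromosome 4, from 145370621 to 147184647. Its median number of tags was 114 and its median score 778, above the 366 of the LTR family, and its folds ranged from 16.0 to 57.3. The protein-coding genes nearest to its peaks were Gm13242, 2610036A22Rik, Rex2, Zfp600, Gm13139, Gm13152 and Gm13157, of which Rex2, Zfp600, Gm13139, Gm13152 and Gm13157 are themselves among the KRAB-ZFPs assayed in the series. The peaks nearest to Gm13242, Rex2, Zfp600 and Gm13152 lay 76377, 72307, 70922 and 43860 bp from these genes, and those nearest to 2610036A22Rik, Gm13139 and Gm13157 lay 648, 617 and 653 bp away. With genes of all types counted, the peak listed for Zfp600 lay within 1 kb of another transcript start. The peak listed for Gm13152 lay in an intron of another gene. In 6 of the 7 peaks the motif scored 18.9, and in the seventh, near Gm13157, with 41 tags, it scored 12.5, just under the threshold. Another family of 5 peaks lay within the gene Flg2 on chromosome 3, a filaggrin-like epidermal gene with internal repeats, at a median fold of 9.90.

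Single-copy peaks and LTR family peaks differed in where they lay relative to genes. Of the 965 single-copy peaks, 186 (19.3%, interval 16.9% to 21.9%) had the summit within 1 kb of an annotated transcript start, a place that takes up 4.15% of the genome. With the motif the share was 20.1% of 698. Of the LTR family peaks 28 (1.06%) lay there and 79.6% were intergenic, against 57.7% of the genome, so that the share over all 3906 peaks was 5.86%. In the other ES samples 1.38% of Gm8898 peaks to 12.8% of Gm14401 peaks lay within 1 kb of a start. Where an LTR family copy lay inside genes of 1 strand, its orientation was opposite to the gene in 349 of 452 copies with a peak (77.2%, interval 73.1% to 80.8%) and in 35 of 46 copies without one (76.1%, interval 62.1% to 86.1%), and the intervals overlapped.

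By the rule for named genes, the protein-coding genes with the highest-fold single-copy peaks within 1 kb of a start included Cdc42bpb, Mtmr10, Tmem106a, H2-T24, Cfl2, Smoc1, Gjc1, Bsn and Gpd2, with folds from 65.6 down to 44.9. Cdc42bpb, a kinase that acts downstream of the GTPase Cdc42, had 96 tags and a fold of 65.6 at -106 bp from the start. Mtmr10, a myotubularin-related protein, had 90 tags and a fold of 62.3 at -460 bp. H2-T24, a non-classical MHC class I gene, had 89 tags at -362 bp, Gjc1, which encodes a gap junction connexin, had 102 at -120 bp, and Gpd2, the mitochondrial glycerol-3-phosphate dehydrogenase, had 57 at -1 bp. Bsn, which encodes a presynaptic scaffold, had 89 tags at 312 bp past its start, and Smoc1, which encodes a secreted calcium-binding protein, 63 at 78 bp past it. The muscle cofilin gene Cfl2 was the 1 gene of these 9 whose peak, with 57 tags at -543 bp, did not reach the motif threshold, with a score of 8.35. In all, 174 single-copy peaks lay within 1 kb of a protein-coding start, and 129 of them held the motif.

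The single-copy peaks with the highest score included those at or nearest to the protein-coding genes Pax5, Ace, Dgkg, Srrm2, D17Wsu92e, Pltp, Vegfa, Fam96a and Tmem106a. The first, in an intron of Pax5, a transcription factor of B cell identity, had 157 tags, a fold of 76.5 and a score of 1416, and its motif scored 15.8. Dgkg, a diacylglycerol kinase gene, held a peak of 129 tags in an intron, and Ace, which encodes angiotensin-converting enzyme, a peak of 126 tags in an exon. The peak assigned to the growth factor gene Vegfa was 147424 bp away from it, with 102 tags and a motif score of 21.6, and that assigned to Pltp, a phospholipid transfer protein gene, was 10064 bp away. Srrm2, a splicing factor gene, and Fam96a held the 2 peaks of these 9 without the motif, with 152 and 93 tags.

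Of 22225 protein-coding genes, 1613 (7.26%) had a Gm14419 summit inside them or within 10 kb, and this share is the background for the gene lists. Of 24 annotated genes of the KAP1 silencing machinery, 1 (4.17%) had a peak, Dnmt3a, a de novo DNA methyltransferase, with 15 tags and a fold of 12 in single-copy sequence. Of 23 annotated genes of the pluripotency list, which also held the KRAB-ZFP gene Rex2, 2 (8.70%) had one. Pou5f1, which encodes the factor Oct4, had a peak inside the gene with 34 tags and a fold of 21.6 and another 5010 bp away with 30 tags, both with the motif, and Klf2 had a peak 7111 bp away with 53 tags and no motif. These shares had wide intervals, 0.739% to 20.2% and 2.42% to 26.8%, and both included the background. Of 19 KRAB-ZFP genes of the study encoded on chromosome 2, 0 had a peak, which allows a share of up to 15.8%. The gene Gm14419 itself, on chromosome 2 from 176785661 to 176797492 on the plus strand, had 0 peaks inside it or within 10 kb.

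Genes named for IAP elements of variable methylation, that is, for single insertions of the LTR elements called IAP whose DNA methylation differs between genetically identical mice, were counted in the same way. Of 13 annotated genes of this list, 8 (61.5%, interval 35.5% to 82.3%) had a peak, Bmf, Cdk5rap1, Diap3, Eps8l1, Mbnl1, Rab6b, Rims2 and Sema6d, beside the background of 7.26%. The genes were listed because they hold or adjoin an IAP insertion, and 6 of the 8 peaks belonged to the LTR family. Within the LTR family, the peak in Rims2 had 62 tags and a fold of 41.7, that in Sema6d 47 tags and a fold of 31.4, that of Bmf, 5723 bp from the gene, 42 tags, and that in Cdk5rap1 23. Mbnl1 had a peak of 16 tags and Eps8l1 one of 15, the latter 405 bp from the gene. The peak of Diap3 was single-copy without the motif, with 45 tags and a fold of 32.5, and that of Rab6b belonged to a smaller family, with 21 tags. Whether these summits lie on the very insertions of variable methylation was not tested.

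Few Gm14419 peaks stood close together. Of 3885 pairs of neighbouring summits on a chromosome, 133 were under 10 kb apart and 3 under 1 kb, and the median distance was 422201 bp. In the bin of 250 bp that begins at a distance of 6500 bp, 18 pairs were found, all of them with both peaks in the LTR family. In 14 of the 18 the weaker summit, with 12 to 23 tags, aligned within the LTR of the reference element, and the stronger one had 45 to 83 tags. The distance is close to that from the site to the downstream LTR in an element of 7090 bp. Whether the peaks of a pair lie in the same element was not tested.

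Single-copy Gm14419 peaks were sparse on the X chromosome. Of 965, 11 (1.14%, interval 0.638% to 2.03%) lay on X, which holds 6.33% of the known bases, and the density was 0.0679 per Mb on X and 0.377 per Mb over all chromosomes. LTR family peaks were not sparse there, with 202 on X, or 1.25 per Mb against 1.03 per Mb over all. Single-copy matches of the motif with at least 17 bits were also fewer on X, with 3.18% of them, and 5 of 154 on X (3.25%, interval 1.39% to 7.37%) had a peak against 382 of 4687 on autosomes (8.15%, interval 7.40% to 8.97%). The other ES samples had 0 to 10 single-copy peaks on X, with 10 of 910 (1.10%) in Gm14401, a share close to that of Gm14419. The labels do not give the number of X chromosomes in these cells.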

How the data were processed

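The series measured the binding of KRAB-ZFPs in mouse cells by ChIP-seq, and the peaks of Gm14419 and of the 8 other KRAB-ZFPs assayed in ES cells were used here. Per the labels, the authors aligned the reads of these samples with Bowtie (--best), and the submitters' processing notes name the build mm9 and MACS 1.4.2. Peaks were called per sample against an input, at a p-value under 1e-05 in these samples with no enrichment threshold, and were set to 200 bp around the summit. The authors deposited for each peak the tag count, the score (the negative log10 of the p-value, multiplied by 10), the fold enrichment, which is a ratio to local background, the false discovery rate in percent, and the called width in bp. None of these was renormalized here. Of 53255 rows, 244 under a name that matches no label were left out, and no other per-sample column was present. The depth of the libraries is not given in the sources used here, so a missing peak does not show absent binding, and interval widths cover counting error only.

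Windows were read from the NCBIM37 assembly, which is mm9, with gencode vM1 genes. Exact 24-base words were counted over the genome, and windows were grouped with BLAST+ 2.17.0 at 80% identity over 100 bases. Copies of the site region were aligned at an e-value under 1e-20 over at least 150 bases. A weight matrix of 24 positions was fitted by expectation maximization to single-copy peaks on odd chromosomes and measured on the others, and the procedure was tested on simulated data. Scripts ran in Python 3.11.15 with NumPy 2.4.6, pandas 2.3.3 and scipy 1.17.1. With 1 sample for each KRAB-ZFP no test between them was made. No annotation of repeats and no protein table was used, so elements are described without repeat names and a comparison of the zinc finger arrays is not reported here. Named genes were those at the 10 highest-fold single-copy peaks within 1 kb of a protein-coding start, those at the 10 single-copy peaks of highest score, genes of the gene lists with a peak, and the KRAB-ZFPs compared. A gene that this rule names is not reported here. The members, the gene lists and the alternatives were chosen with earlier results of these data known.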

Additional observations from a re-analysis of the deposited data

How the results depend on the processing

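At a p-value under 1e-10 and a fold over 20, 2264 peaks remained, the ratio of the Gm14419 peak number to that of the next ES sample rose from 2.53 to 19.4, and at a fold over 10 it was 5.07. At the stricter of these settings, 90.3% of peaks were multi-copy, 90% belonged to the LTR family, 90.1% of held-out single-copy peaks held the motif derived from the stricter peaks, 75.6% of the site copies had a peak and 0% of the C5T copies, which allows up to 2.10% (these last values come from alternatives chosen after seeing the data), 3.40% lay within 1 kb of a start and 9.28% were shared with another KRAB-ZFP. The fold cut also lies above the median fold of peaks at C4T+T20C and C4T+G22A, versions without C5T. The multi-copy share was 71.4% and 64.1% with a minimum of 10 and 100 copies and 72.3% with words of 36 bases, and the LTR family held 64.5% at 90% identity. With the threshold at 0.1% of flanks, the motif was in 53.4% of held-out peaks and 96.2% of the LTR family, and derived on even chromosomes and X it was in 98.0% of the LTR family. In called peak intervals, 3.14% of genome matches lay in a peak. Within 5 kb of a start lay 15.5% of peaks. The share of peaks shared with other KRAB-ZFPs was 5.61% at 50% overlap, 35.7% within 1 kb and 3.32% over single-copy peaks of both. Within 5 kb, 67 neighbouring pairs remained. The ratio of peak density on X to that on autosomes was 0.959 over all peaks and 0.170 over single-copy peaks. Genes with a peak were 4.26% inside the gene alone and 3.84% over single-copy peaks. Over 16 results, 44 alternatives were computed. Of these, 14 left a share within its counting interval or a count or ratio within 1.5 times its value, and 30 moved it beyond.

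No paired analysis was possible because each KRAB-ZFP was assayed in 1 sample and no value comes from a test over replicates. No sample was left out, for the same reason. The values rest on a single library of unknown depth and on reads placed at random among identical copies, and those on C5T on 143 copies.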
